A study of Mus musculus with 8 samples.

Results

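Genes for the uptake and intracellular binding of fatty acids were followed in mouse liver with and without the nuclear corepressor NCOR. The 10 genes comprise the scavenger receptor Cd36, the fatty acid transport proteins Slc27a2 and Slc27a4, the lipoprotein lipase Lpl, the VLDL receptor Vldlr and the fatty acid binding proteins Fabp1, Fabp2, Fabp4, Fabp5 and Fabp7. They were chosen by symbol, from probe sets annotated to a single gene, and make up 10 of the 22180 genes measured. Where a gene had several probe sets, called rows here, the row with the highest mean over the 8 arrays stood for it, and the other rows were described as well. The 10 genes had 15 rows in all, and no filter on dim rows was applied, so every gene was tested.

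Liver RNA was hybridised to 1-colour Affymetrix Mouse Gene 2.0 arrays, 4 per group. The NCOR_KO group was given Cre recombinase, which removes floxed DNA, by an adeno-associated virus (AAV), and the WT group was given GFP by the same kind of vector. All mice were 3 months old, ate normal chow, and were injected in a vein 2 weeks before the livers were taken at 5 pm, which was ZT10. The design text gives floxed NCOR mice to both viruses while the labels call the controls wild-type, so whether the WT livers carried the floxed allele is not settled. The promoter driving Cre and the share of liver cells reached by the virus are not given in the sources used here. Cre was present in NCOR_KO livers only, so Cre itself and the loss of NCOR cannot be told apart. Ncor1 itself was not analysed here, so the group labels have no check from the deleted gene. The replicates are described as biological, with no animal named for any array, and p-values therefore measure only the variation among these arrays.

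Fatty acids reach a liver cell bound to albumin or inside lipoproteins, from which lipoprotein lipase frees them. CD36 and the FATP transporters help them across the membrane, and FATP proteins also activate very long chain fatty acids with coenzyme A. Inside the cell small FABP proteins carry them to membranes, oxidation and the nucleus, where they can meet PPAR receptors. FABP1 is the abundant form of hepatocytes, while FABP4 is best known from adipocytes, FABP5 from skin and macrophages, FABP2 from intestine and FABP7 from brain. NCOR holds genes silent through nuclear receptors such as the thyroid hormone receptor, LXR and PPARs.

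The arrays were alike in brightness, with median intensities from 41.0 to 44.1. Hepatocyte genes were bright, with log2 intensities of 13.52 for albumin (Alb) in both groups and of 13.34 in WT and 13.28 in NCOR_KO livers for transthyretin (Ttr). Of 15 hepatocyte markers measured, 0 passed limma, also at an unadjusted p under 0.05, and the median change was -0.01. On the second principal component (20.4% of the variance) the lowest scores were -20.5 for WT replicate 2 and -12.2 for NCOR_KO replicate 1, and values without these arrays are given where they bear on a gene.

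Fabp5, Cd36 and Lpl were higher in NCOR_KO liver, by 4.86-fold, 2.46-fold and 1.85-fold. The other 7 genes did not pass the test, among them the main hepatocyte genes of the set, Fabp1, at 1.03-fold lower, and Slc27a2, at 1.04-fold higher. The test was limma's, fitted to all genes, with Benjamini-Hochberg adjustment and a threshold of 0.05. Of the 10 genes 3 rose and 0 fell, where 0.816% of all genes rose and 0.834% fell. At an unadjusted p under 0.05, 4 of the 10 genes were higher, Fabp4 included, and 0 were lower, while 3528 of all 22180 genes differed in either direction. All 4 NCOR_KO values lay above all 4 WT values in 4 of the 10 genes, Fabp4 being the other, against 4.9% of all genes. The median log2 change was 0.28 over the 10 genes and 0.01 over all genes. The 10 genes were chosen with earlier results of these data known, so these counts describe the set and are no test of it. In bulk liver, fewer or more cells of a type and less or more RNA per cell cannot be told apart. Log2 intensities of different rows depend on their probes, so levels are compared between livers. The median gene is named only as a mark of how dim a row was.

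**Figure D1:**
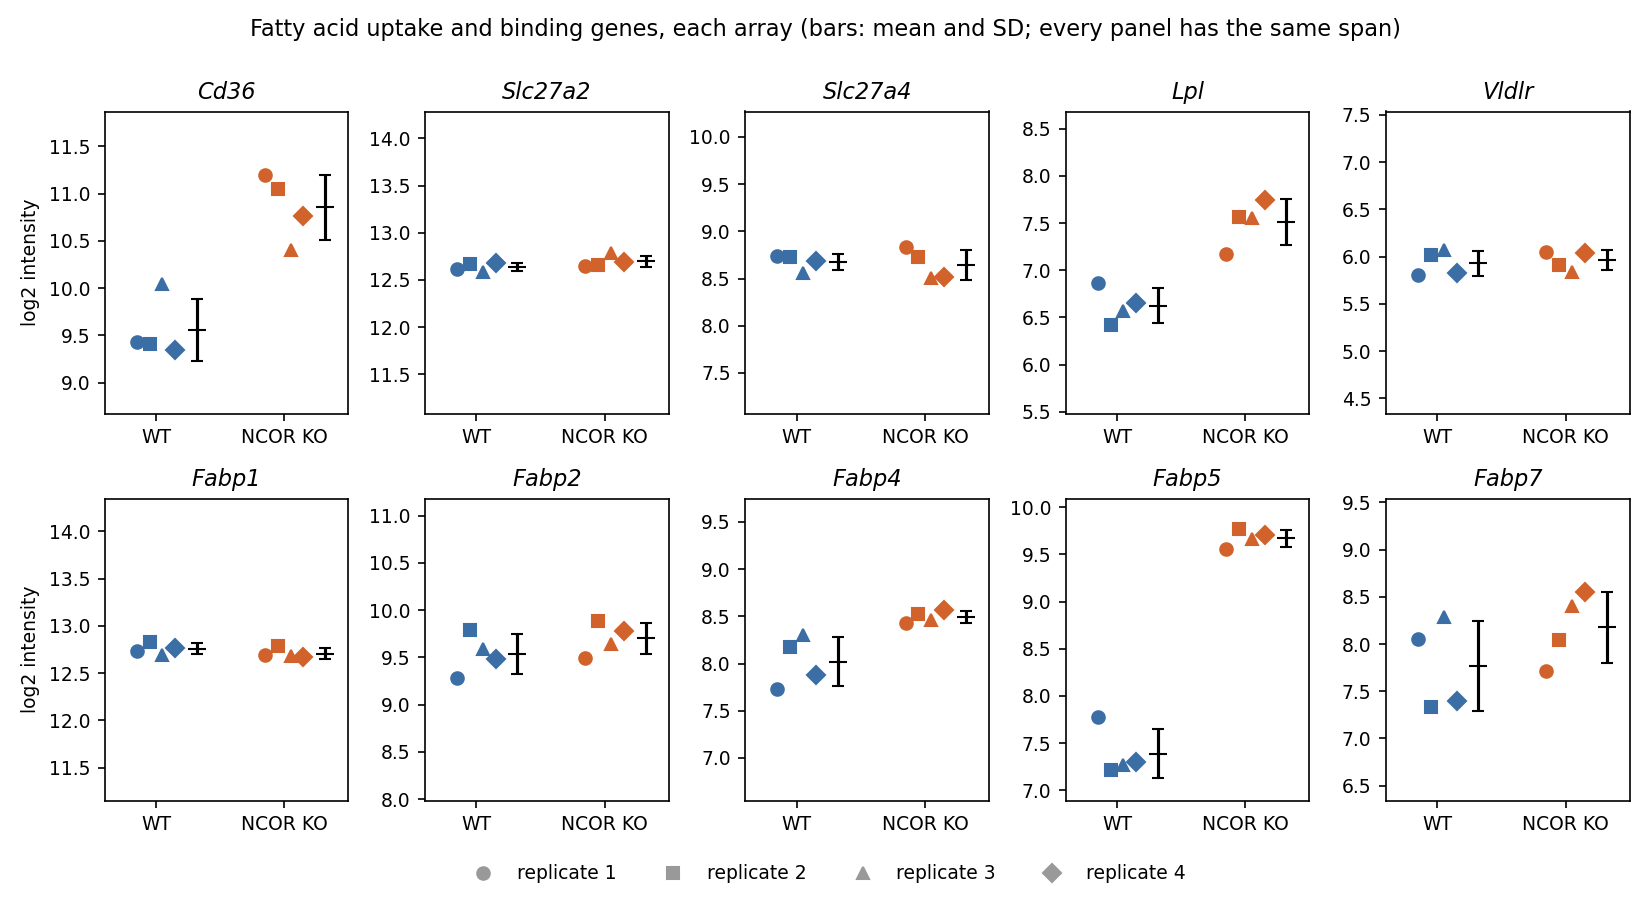
Log2 intensity of each of the 10 genes on each array, WT in blue and NCOR KO in orange, with the replicate number as the symbol and the group mean and SD (n = 4) as bars. The groups stand apart for Fabp5, Cd36, Lpl and, by a narrow gap, Fabp4, and overlap for the other 6 genes.

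Cd36 encodes a fatty acid translocase and scavenger receptor that is low in normal mouse liver and is a known target of PPARγ, LXR and PXR there. Its log2 intensity was 9.43, 9.41, 10.04 and 9.35 in WT replicates 1 to 4, and 11.20, 11.05, 10.41 and 10.77 in NCOR_KO replicates 1 to 4. The groups did not overlap, but WT replicate 3 lay well above the other controls and NCOR_KO replicate 3 lay below the other knockouts, so the closest values were 10.04 and 10.41. The group means were 9.56 ± 0.32 and 10.85 ± 0.35 (SD, n = 4). Both lay above the median gene at 5.88, so the row was not dim in these livers. The log2 change was 1.30 ± 0.19 (SE, limma adjusted p = 0.00903), with a 95% confidence interval from 0.88 to 1.71. On the linear scale the 3 lower controls stood at intensities of 651 to 688 and WT replicate 3 at 1053, against 1357 to 2346 in NCOR_KO livers. Without WT replicate 2 and NCOR_KO replicate 1 the change was 1.14 (adjusted p = 0.0431).

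Slc27a2 encodes FATP2, a transporter and very long chain acyl-CoA synthetase of liver and kidney. Its log2 intensity ran from 12.59 to 12.68 in WT and from 12.65 to 12.78 in NCOR_KO livers. The groups overlapped, and the change of 0.06 ± 0.06 did not pass (adjusted p = 0.660). Its 95% interval, -0.07 to 0.19, corresponds to a ratio between 0.953 and 1.14. A dimmer row of Slc27a2, at 6.19 in WT and 6.29 in NCOR_KO livers, was at 0.10 ± 0.08 (adjusted p = 0.593 over all rows). Slc27a4, which encodes FATP4, the main FATP of the intestine, ran from 8.56 to 8.74 in WT and from 8.51 to 8.83 in NCOR_KO livers. Its NCOR_KO values thus lay on either side of the WT range, and the change was -0.03 ± 0.08 (adjusted p = 0.890; interval -0.22 to 0.16).

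Promoter sequence was set beside these values for Cd36, which rose, and for Fabp1 and Slc27a2, which did not pass, because PPARs and LXR, receptors that NCOR serves, bind copies of the hexamer AGGTCA. The 250 bases before each RefSeq start on GRCm38.p6 are shown 5′ to 3′ on the gene's strand, with each AGGTCA or its complement TGACCT in capitals. RefSeq gives Cd36 several transcripts, and the start used lies inside its annotated span of chr5:17781690-17888959, so other starts upstream are not shown. The windows lie at chr5:17835897-17836146 on the minus strand for Cd36, at chr6:71199629-71199878 on the plus strand for Fabp1, and at chr2:126552774-126553023 on the plus strand for Slc27a2.
Cd36: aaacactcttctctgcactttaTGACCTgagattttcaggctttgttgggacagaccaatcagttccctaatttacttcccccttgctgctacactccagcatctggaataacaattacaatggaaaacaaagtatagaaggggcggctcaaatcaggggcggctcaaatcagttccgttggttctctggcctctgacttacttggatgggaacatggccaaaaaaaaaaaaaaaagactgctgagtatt
Fabp1: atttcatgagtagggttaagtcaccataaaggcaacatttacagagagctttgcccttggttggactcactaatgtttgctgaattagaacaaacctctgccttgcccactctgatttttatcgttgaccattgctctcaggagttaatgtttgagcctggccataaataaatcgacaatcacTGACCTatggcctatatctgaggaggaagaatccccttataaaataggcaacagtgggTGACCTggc
Slc27a2: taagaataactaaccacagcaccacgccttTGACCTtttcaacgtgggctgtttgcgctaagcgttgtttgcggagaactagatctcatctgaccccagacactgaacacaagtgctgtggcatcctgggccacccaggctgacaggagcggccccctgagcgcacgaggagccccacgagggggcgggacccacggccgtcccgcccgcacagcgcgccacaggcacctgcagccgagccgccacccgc
Cd36 held the hexamer with its first base 228 bases before the start, Slc27a2 220 bases before it, and Fabp1 67 and 9 bases before it. Windows of Fabp4, Fabp5 and Lpl were not used here, so Cd36 was the only gene that rose with a window. Of the 7 genes of the set with windows, 4 held it on either strand, the fourth being Fabp7, while 14.0% of 32851 windows of the same length did. An exact direct repeat of the hexamer with a single spacer base is AGGTCANAGGTCA. It was in 0 of the 7 genes, on either strand, and in 0.0335% of all windows. Only exact letters were searched, so repeats with a mismatch or with another spacer may stand in these windows. The letters TATAAA, on either strand, were found in Fabp1 alone of the 7, and in 12.4% of all windows. The hexamer thus stood in the windows of a gene that rose and of genes that did not pass, and a match of letters is not a bound site.

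Lpl encodes lipoprotein lipase, which frees fatty acids from triglyceride-rich lipoproteins at the vessel wall and is low in adult hepatocytes. It stood at log2 intensities of 6.87, 6.42, 6.57 and 6.65 in WT replicates 1 to 4 and of 7.17, 7.56, 7.55 and 7.75 in NCOR_KO replicates 1 to 4. All NCOR_KO values were higher, with a gap of 6.87 to 7.17 between the nearest arrays, and NCOR_KO replicate 1 was the lowest of its group. Means were 6.63 ± 0.19 and 7.51 ± 0.24 (SD, n = 4), a log2 change of 0.88 ± 0.13 (SE, adjusted p = 0.00888, interval 0.60 to 1.16). A second Lpl row was dim, at 3.58 ± 0.06 and 3.67 ± 0.06, where the median gene lay at 5.88, and its change of 0.09 ± 0.06 did not pass (adjusted p = 0.482 over all rows). With the mean of both rows the Lpl change was 0.49 (adjusted p = 0.0128).

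Vldlr encodes a receptor that takes up triglyceride-rich lipoproteins and is low in healthy liver. It ran from 5.80 to 6.07 in WT and from 5.83 to 6.05 in NCOR_KO livers, close to the median gene. The groups overlapped almost wholly, with a change of 0.03 ± 0.08 (adjusted p = 0.894) and an interval from -0.15 to 0.21. The sign of that value turned to -4.79e-03 after quantile normalization and to -0.0138 with each array centred on its median.

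Fabp5 encodes the epidermal fatty acid binding protein, which can pass ligands to PPARδ. Its log2 intensity was 7.78, 7.22, 7.27 and 7.30 in WT replicates 1 to 4 and 9.55, 9.77, 9.67 and 9.70 in NCOR_KO replicates 1 to 4. The knockout livers lay close together and far above every control, and the control nearest to them, WT replicate 1, stood apart from the other 3. Linear intensities were 149 to 220 in WT and 751 to 871 in NCOR_KO livers. The log2 change was 2.28 ± 0.12 (SE, adjusted p = 1.03e-05), with an interval from 2.02 to 2.54, or 4.07-fold to 5.81-fold.

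Fabp5 had 4 rows. The row next in brightness (probe set 17548717) differed from the brightest (17548238) by -0.01 to 0.05 on the log2 scale on every array, and rose by 2.30 ± 0.12, so these rows were read as a repeat of each other. The third row (17396056) stood at 6.40, 6.41, 6.20 and 5.94 in WT and at 7.63, 8.01, 7.99 and 7.90 in NCOR_KO replicates 1 to 4. It rose by 1.65 ± 0.12 (adjusted p = 1.02e-04 over all rows), again with no overlap. The dimmest row (17404073), at 3.99 to 4.28 in WT and 4.32 to 5.01 in NCOR_KO livers, was at 0.53 ± 0.13 and did not pass (adjusted p = 0.0808). All 4 rows thus had an estimate above 0, from 1.44-fold to 4.92-fold, and the mean of the rows gave 1.69 (adjusted p = 3.74e-05). RefSeq also lists a pseudogene named Fabp5l2, whose position was not looked at. Probe sequences were not used here, so which rows share signal with such a copy was not tested. Over all 15 rows of the 10 genes 5 rose, of which 3 were Fabp5 rows, against 0.782% of all 23521 rows. That count takes the near-identical Fabp5 rows 17548238 and 17548717 one by one, though they are no separate measurements.

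**Figure D2:**
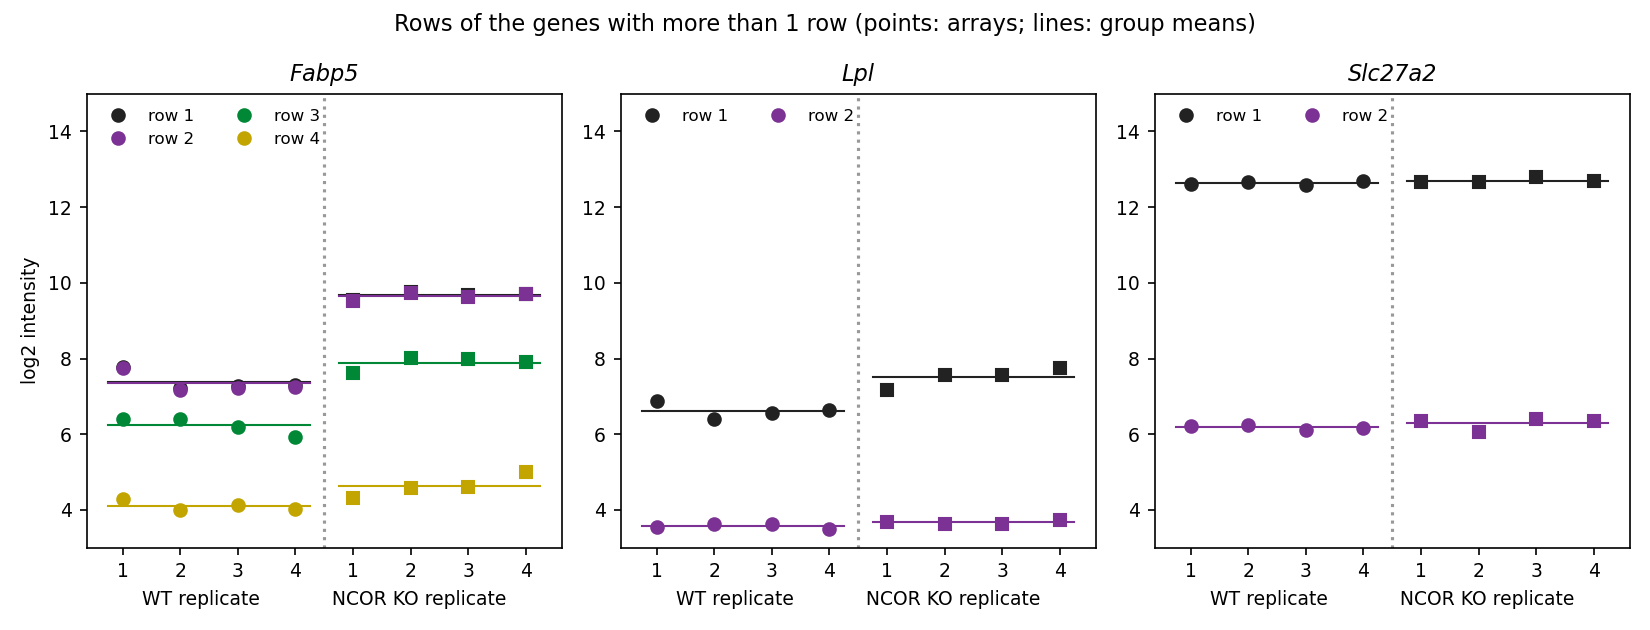
Log2 intensity of every row of the 3 genes with several rows, by array, numbered from the brightest row, with circles for WT, squares for NCOR KO and lines at the group means. Fabp5 rows 1 and 2 coincide, rows 1 to 3 rose, and the dim row 2 of Lpl, near 3.6 in both groups, did not follow row 1.

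Fabp4 encodes the adipocyte binding protein, found also in capillary endothelium and macrophages. Its log2 intensity was 7.73, 8.17, 8.31 and 7.87 in WT replicates 1 to 4 and 8.43, 8.53, 8.46 and 8.56 in NCOR_KO replicates 1 to 4. Every NCOR_KO value was higher, but WT replicate 3 came close to NCOR_KO replicate 1, and the controls spread more (SD 0.26) than the knockouts (SD 0.06). The change of 0.47 ± 0.11, or 1.39-fold, did not pass (adjusted p = 0.0749, interval 0.22 to 0.73). It passed without WT replicate 3 (0.57, adjusted p = 0.0392) and when genes dimmer than the median gene were left out of the test (adjusted p = 0.0497).

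Fabp7 encodes the brain binding protein, which in mouse liver is known from Kupffer cells. It read 8.06, 7.33, 8.29 and 7.40 in WT replicates 1 to 4 and 7.71, 8.04, 8.40 and 8.55 in NCOR_KO replicates 1 to 4. The groups overlapped widely, 2 controls lying above NCOR_KO replicate 1, and the SDs of 0.48 and 0.38 were the largest of the 10 genes in both groups. Its change of 0.41 ± 0.24 did not pass (adjusted p = 0.436), and the interval from -0.12 to 0.93 spans ratios between 0.923 and 1.91.

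Fabp1, the liver form, is a textbook PPARα target and ran from 12.69 to 12.83 in WT and from 12.67 to 12.79 in NCOR_KO livers. The change was -0.05 ± 0.06 (adjusted p = 0.724), and its interval, a ratio between 0.883 and 1.06, does not reach the change of any gene of the set that rose. Fabp2, the intestinal form, ran from 9.28 to 9.80 in WT and from 9.49 to 9.88 in NCOR_KO livers, with most values in the shared range. Its change was 0.16 ± 0.11 (adjusted p = 0.527, interval -0.09 to 0.41). It moved with single arrays, to 0.08 without WT replicate 1, 0.10 without NCOR_KO replicate 2 and 0.25 without WT replicate 2, and was 0.32 (adjusted p = 0.193) without WT replicate 2 and NCOR_KO replicate 1 together.

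Within the binding proteins the change of Fabp5 was set against those of the other 4, array by array. It was larger by 2.33 than that of Fabp1, by 2.12 than that of Fabp2, by 1.87 than that of Fabp7 and by 1.81 than that of Fabp4, on the log2 scale. Each of these differences had p = 0.0286 in a two-sided exact permutation test, the smallest p that 70 assignments allow, and an adjusted p of 0.0571 over all 10 pairs compared. Fabp4 against Fabp1 gave the same p-values at a difference of 0.52. The remaining 5 pairs had exact p-values from 0.0571 (Fabp2 against Fabp4) to 0.829 (Fabp4 against Fabp7). The tests were chosen with earlier results known, and Fabp5 had the largest change of the set. Its p-values here follow from that change and are no separate evidence. Only the brightest row of Fabp5 was used. Its dimmer rows had log2 changes of 2.30, 1.65 and 0.53, the lowest being close to the 0.47 of Fabp4. Those rows were not tested against the other genes.

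**Figure D3:**
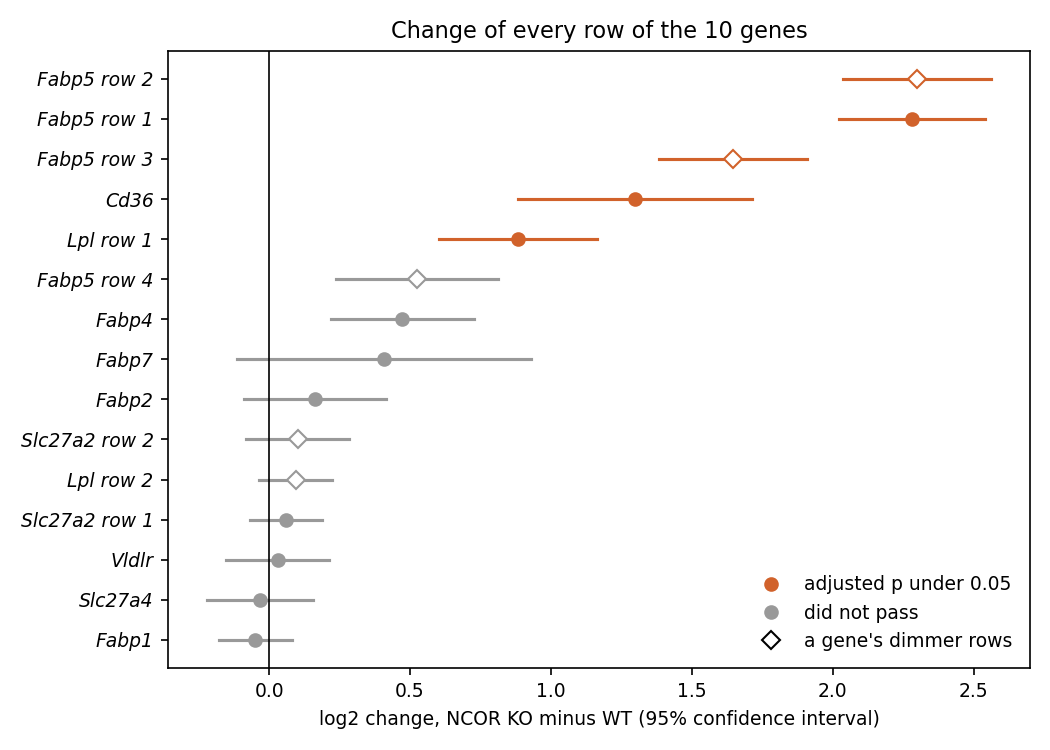
Log2 change (NCOR KO minus WT) of all 15 rows with its 95% confidence interval from limma, orange where the adjusted p over all rows was under 0.05, with open diamonds for a gene's dimmer rows. The 5 orange rows belong to Fabp5, Cd36 and Lpl, from 0.88 to 2.30, while the intervals of Fabp4 and of the dimmest Fabp5 row exclude 0 without passing the adjusted threshold.

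Fabp5 lies beside other genes of its family in RefSeq's mouse assembly. In order along the chromosome follow a noncoding gene, a pseudogene, Pmp2, which encodes the myelin form of the protein, Fabp9, Fabp4 and Fabp12. Pmp2 and Fabp9 were dim, at 3.66 and 3.80 in WT and 3.65 and 3.83 in NCOR_KO livers, and did not pass (adjusted p = 0.943 and 0.876). Fabp12 stood at 4.98 in WT and 5.16 in NCOR_KO livers, a difference of 0.18 ± 0.06 (adjusted p = 0.143). Of the 5 further FABP genes measured, which add Fabp3 and the bile acid binding gene Fabp6, 0 passed limma (2 at an unadjusted p under 0.05), and the largest change was that of Fabp12. Slc27a5, the bile acyl-CoA synthetase gene, was bright at 12.15 and 12.17, and with it 0 of the 4 further FATP genes passed, also unadjusted. The largest change among them, 0.06 ± 0.08, was that of Slc27a1 (adjusted p = 0.761).

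Partners and regulators of the pathway were taken from lists of related genes and tested in the same limma fit. For comparison with the counts of these lists, 3528 of all 22180 genes had an unadjusted p under 0.05, and 11539 had a change above 0. Of 9 acyl-CoA synthetases 0 passed (3 at an unadjusted p under 0.05), 7 had a change above 0 and the median was 0.12. Acss2, which activates acetate, had the largest change, 0.63 ± 0.15, from 10.42 to 11.05, and did not pass (adjusted p = 0.0749). Of 11 lipase partners and inhibitors 0 passed (2 unadjusted), with a median of 0.06. Lipg, the endothelial lipase gene, was at 0.27 ± 0.19 (adjusted p = 0.528), and at 0.04 without WT replicate 1, which read 9.14 against 9.96 to 10.14 in the other controls. Of 11 lipoprotein receptors and their regulators 0 passed (2 unadjusted), with a median of 0.04, and Lrp5, a Wnt coreceptor that also binds lipoproteins, had the largest change at 0.24 ± 0.08 (adjusted p = 0.196). Of 17 other lipid carriers and membrane partners 0 passed (2 unadjusted), with a median close to 0. The kinase gene Fyn, whose product binds CD36, had the largest change there at 0.24 ± 0.09 (adjusted p = 0.231).

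Of 15 nuclear receptors and coactivators that act on fatty acid genes 0 passed (3 unadjusted), with a median of -0.02. Pparg, the receptor gene that drives Cd36 and Fabp4 in adipocytes, had the largest change, 0.41 ± 0.19 (adjusted p = 0.333). Its log2 intensity was 8.40, 8.07, 8.33 and 8.23 in WT replicates 1 to 4 and 9.06, 8.97, 8.04 and 8.59 in NCOR_KO replicates 1 to 4. NCOR_KO replicate 3 thus lay below every control, and without it the change was 0.62 (adjusted p = 0.0634). Without WT replicate 2 and NCOR_KO replicate 1 it was 0.21. The order of the 4 knockout livers was the same for Pparg as for Cd36, while among the controls WT replicate 3 was highest for Cd36 and WT replicate 1 for Pparg. NCOR_KO replicate 1, the highest for Pparg, was the lowest knockout for Fabp4 (8.43), Fabp5 (9.55) and Lpl (7.17). The part of Pparg in the values of these genes was not tested. The 3 receptor genes with an unadjusted p under 0.05 were all lower, Nr1h3 (LXRα) and Rxra (RXRα) each by a log2 change of -0.18 and Nr1i3 (CAR) by -0.29, with adjusted p-values from 0.133 (Nr1i3) to 0.183 (Rxra).

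**Figure D4:**
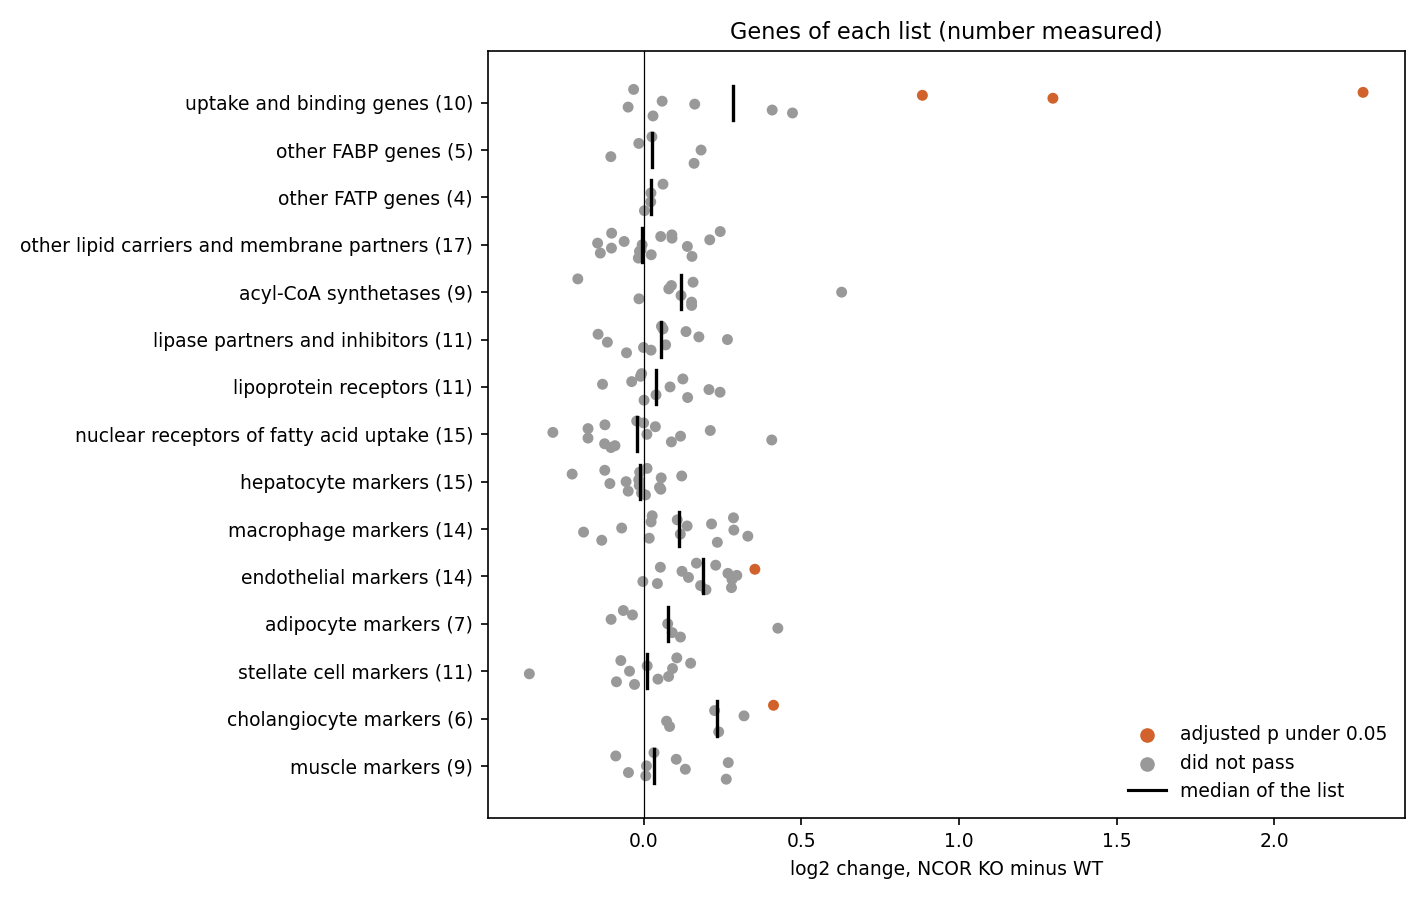
Log2 change (NCOR KO minus WT) of each gene by list, with the number measured in brackets, orange for an adjusted p under 0.05 and a bar at each list's median. The 10 uptake and binding genes hold the 3 largest values, all above 0.8, and orange points outside them are those of Robo4 and Epcam.

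Markers of other liver cells were set beside the genes that such cells express. The counts of every marker list stand against 11539 of all 22180 genes above 0 and 3528 with an unadjusted p under 0.05, in either direction. The median change of 14 endothelial markers was 0.19, 13 of them lay above 0, and 8 had an unadjusted p under 0.05, all 8 higher. After adjustment 1 rose, Robo4, an endothelial receptor gene, by 0.35 ± 0.07 (adjusted p = 0.0429), a call lost in 9 of 15 alternative fits. The mean log2 level of the list was 8.42 to 8.63 in WT and 8.62 to 8.75 in NCOR_KO livers. WT replicate 3, the control with the highest Fabp4, was the highest control there too. The other controls ran in opposite orders. WT replicate 2 was next highest for Fabp4, at 8.17, but lowest in the list, at 8.42. Among the knockouts NCOR_KO replicate 1 was lowest for both, at 8.43 for Fabp4 and 8.62 for the list. NCOR_KO replicate 4 was highest for both, at 8.56 and 8.75, while replicates 2 and 3 ran in opposite orders. Gpihbp1, which anchors lipoprotein lipase on capillaries, was at 0.18 ± 0.06 (adjusted p = 0.174). The part of endothelial cells in the Fabp4 and Lpl values was not tested.

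Of 14 macrophage markers 0 passed, also unadjusted, with a median of 0.11 and 11 above 0. Their mean level was 7.84 to 8.63 in WT and 8.06 to 8.73 in NCOR_KO livers. The lowest array of each group was WT replicate 2 and NCOR_KO replicate 1, and these were also the lowest arrays of their groups for Lpl and Fabp7. The endothelial list had the same lowest arrays, at 8.42 and 8.62, so the match is not particular to macrophage markers. Without both of them the Lpl change was 0.93 (adjusted p = 0.00502) and the Fabp7 change 0.42 (adjusted p = 0.444). The Fabp7 change was 0.26 without WT replicate 2 alone and 0.56 without NCOR_KO replicate 1 alone. The part of macrophages in the Lpl and Fabp7 values was not tested.

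Adipocyte markers had a median change of 0.08, and 0 of 7 passed, also unadjusted. The largest change was that of the lipid droplet gene Plin4, at 7.70 in WT and 8.13 in NCOR_KO livers (0.43 ± 0.23, adjusted p = 0.410), with NCOR_KO replicate 1 the highest at 8.75. The defining markers Adipoq, at 4.28 in WT and 4.25 in NCOR_KO livers, and Lep, at 4.72 and 4.66, lay below the median gene in both groups. The mean level of the list was 5.72 to 5.91 in WT and 5.78 to 5.96 in NCOR_KO livers. Of 9 muscle markers 0 passed (2 unadjusted), with mean levels of 5.09 to 5.18 and 5.17 to 5.25 and a median of 0.03. Of 6 cholangiocyte markers 1 rose, Epcam, from 5.82 to 6.23 (adjusted p = 0.0452, also lost in 9 fits). All 6 lay above 0, 3 of them with an unadjusted p under 0.05, with a median of 0.23 and mean levels of 5.40 to 5.49 in WT and 5.55 to 5.71 in NCOR_KO livers. Of 11 stellate cell markers 0 passed, also unadjusted, with a median of 0.01 and mean levels of 7.59 to 7.78 and 7.58 to 7.77.

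Genes whose liver-to-liver variation was most like that of each gene that rose were found from deviations from the group means, over 8 arrays and among 10549 genes at or above the median level. For Cd36 these were Aldh1a1, a retinaldehyde dehydrogenase gene (Pearson r = 0.981), Ddx41 (0.947) and Zfp623 (0.940). For Fabp5 they were the plasma protein genes Hpx (0.985) and Orm2 (0.966), with C1qtnf1 (0.974) between them. WT replicate 1, the highest control for Fabp5, was also the highest for Hpx, at 13.13, and for Orm2, at 11.86, and stood apart from the other 3 controls in both, genes chosen for varying as Fabp5 did. Without that array the Orm2 change of -1.30 was -0.45. For Lpl they were Chac1 (0.982), Smlr1 (0.981) and the phagocyte oxidase gene Cyba (0.979). None of these 9 genes passed the test between groups, their adjusted p-values running from 0.323 (Smlr1) to 0.871 (C1qtnf1). With 8 arrays and so many genes searched, values of this size are a description of these livers only.

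**Figure D5:**
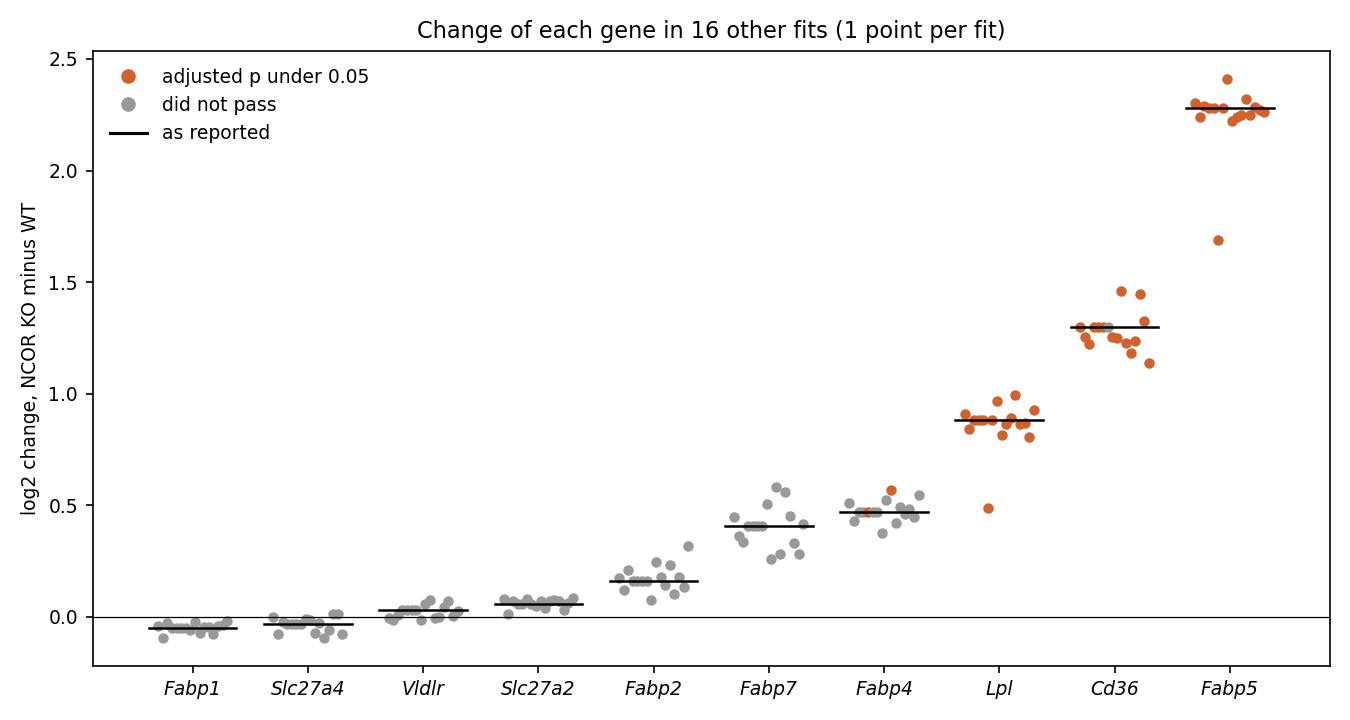
Log2 change of each of the 10 genes in 16 other fits (another normalization, variance model, filter or row choice, the replicate block, or arrays left out), 1 point per fit, orange where the adjusted p was under 0.05 and with a line at the value reported. Fabp5 stayed between 1.69 and 2.41 and Lpl between 0.489 and 0.996, both orange throughout. Cd36 stayed between 1.14 and 1.46 and is grey in the fit with the replicate block. There limma's adjusted p was 0.0523 for Cd36 and 0.0486 for Lpl.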

How the data were processed

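Mouse liver RNA was measured on 8 1-colour arrays, 4 WT (AAV-GFP) and 4 NCOR_KO (AAV-Cre), with groups and replicate numbers from the sample titles. The authors deposited linear probe-set intensities. RMA and Partek appear in the submitters' processing notes, with no role or version. The genome build and any filters are not given in the sources used here. Log2 of the deposited intensity was taken, with no further normalization. Such summarised values carry no counts, so the number of arrays limits the precision.

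Of 41345 rows, 25335 had an assigned gene. The 1814 with several genes were left out, and 23521 rows of 22180 genes remained. Of these rows 23328 matched RefSeq (GRCm38.p6) by gene identifier, and 0 symbols changed. The brightest row stood for each gene. The 2 groups were compared on all 8 arrays in limma 3.58.1 (R 4.3.3), by lmFit and eBayes with neither trend nor robust settings, with Benjamini-Hochberg adjustment over all genes or, where stated, over all rows. The fit was tested on simulated data. Changes are NCOR_KO minus WT, and errors are SDs of 4 arrays or standard errors of the fit.

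The 10 genes, the lists (158 of 174 symbols measured) and the tests were chosen with earlier results of these data known. Named by rule were the 10 genes, in each pathway list up to 4 genes past the threshold or otherwise the largest change, marker genes past the threshold, and 3 genes most like each of Cd36, Fabp5 and Lpl. Alb, Ttr, Adipoq, Lep, Gpihbp1, Plin4, Nr1h3, Rxra, Nr1i3, Slc27a5, Pmp2, Fabp9, Fabp3 and Fabp6 were named outside that rule, with their values seen. Alternatives were quantile normalization, median centring, array weights, a trend and robust variance, a filter on dim genes, the mean of a gene's rows, the replicate block, a threshold of 0.1 and each array left out. A further fit, chosen after seeing the data, left out both WT replicate 2 and NCOR_KO replicate 1. Promoters came from RefSeq windows on GRCm38.p6. Plots were made in matplotlib 3.10.9 (Python 3.11.15).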

Additional observations from a re-analysis of the deposited data

Results flagged for a closer look

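In 4 of 48 groups of 4 arrays, taken over the 15 rows and the pathway and marker genes named by rule, a value stood apart from the other 3 by more than 0.829 of the group's range, where chance gives about 1 in 20. WT replicate 3 was high for Cd36 at a log2 intensity of 10.04. WT replicate 1 was high for Fabp5 at 7.78, and again at 7.74 in its near-identical next row, which is no separate measurement. NCOR_KO replicate 2 was high for Fabp1 at 12.79, within a group spread of 0.0556 (SD). WT replicate 1 was high by the same measure for Hpx, at 13.13, and Orm2, at 11.86, which were picked for varying as Fabp5 did, so their values follow from that choice. Without WT replicate 3 the Cd36 change was 1.46, and without WT replicate 1 the Fabp5 change was 2.41, both larger than with all arrays.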

How the results depend on the processing

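Fabp5 and Lpl passed in all 15 planned fits and Cd36 in 14. The count of the 10 genes past the threshold was 2 to 4, and with each array left out 3 to 4. Same-numbered arrays did not deviate together over all genes (r = -0.09, 0.01, 0.02 and -0.06 for replicates 1 to 4). The labels do not say whether the numbers pair animals, and such values cannot settle it, since a shared factor may move few genes. With the replicate block 155 genes passed in place of 366, and limma's adjusted p was 0.0523 for Cd36 and 0.0486 for Lpl. Adjusted over all rows, that of Lpl was 0.0502, and 3 of the 15 rows passed in place of 5. Over all genes 551 passed among the brighter genes only, 807 at a threshold of 0.1, 202 without WT replicate 2 and NCOR_KO replicate 1 together, and 120 to 297 with single arrays left out. With each array centred on its median 147 rose and 383 fell, in place of 181 and 185, and the median of all genes moved from 0.01 to -0.04, with the same 3 genes of the set rising and 0 falling.

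Changes near 0 turned sign in some fits. Vldlr was at -4.79e-03 after quantile normalization and -0.0138 with median centring, and ran from -0.0133 to 0.0774 with single arrays left out. In the same fits Slc27a4 ran from -0.0932 to 0.0143, Slc27a1 from -0.0210 to 0.106, Hpx from -0.0627 to 5.99e-03, C1qtnf1 from -0.0565 to 0.0222, Chac1 from -0.271 to 0.0193 and Zfp623 from -0.0509 to 9.93e-04. Zfp623 was at 3.25e-03 after quantile normalization. Robo4 and Epcam lost the call in 9 of 15 fits each. The causes were not tested. Dim rows, such as the lower rows of Fabp5 and Lpl, limit what a missed threshold says there.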
